A study of Mus musculus with 18 samples.

Results

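The acute response of skeletal muscle to clenbuterol, an agonist of the beta2-adrenergic receptor, was described from 6 RNA pools, 3 of the 24 h group and 3 of the C (control) group. These were 6 of the 9 pools and 12 of the 18 arrays of the series, chosen by their labels alone. C mice received 10 daily injections of vehicle. The 24 h mice received 9 injections of vehicle and then 1 of clenbuterol at 1 mg/kg, so both groups had been handled and injected on the same days. The 10 D mice, which received 10 injections of clenbuterol, supplied the other 3 pools and entered the fit as a group of their own. All mice were C57BL/6J males, 3 to 5 wk of age at the start, muscle was collected 24 h after injection 10, and RNA of the gracilis (spelled gracillus in the labels), a thigh muscle, was pooled from 3 mice per pool. The mice in the pools had been selected for large differences in blood urea nitrogen or weight gain, and whole cages had been given 1 treatment. Pools of a group can therefore share cages and are not fully independent, the values describe selected animals, and the spread between single mice cannot be seen. No batch or scan day was named for any array. A permutation of 3 pools against 3 cannot give a two-sided exact p below 0.1, so the calls below rest on the moderated test of limma across all probesets.

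Beta2-adrenergic receptors on muscle fibres couple through a stimulatory G protein to adenylyl cyclase. The cAMP made there activates protein kinase A, which phosphorylates CREB and related factors in the nucleus and so turns on genes with cAMP response elements, among them the coactivator PGC-1alpha and the repressor CREM. In muscle, agonists of these receptors are known for raising protein accretion and fibre size, for mobilizing glycogen and fat and, at high doses, for damaging some fibres. In pooled whole muscle, fewer cells of a type and less RNA per cell cannot be told apart.

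Every pool was measured on both chips of the mouse set, MOE430A and MOE430B, which together held 44924 probesets after repeats and misplaced values had been removed. Levels are given as probeset signal over the array median, so a level of 1 is the median of that array and levels on the 2 chips are not on a common scale. Array medians lay between 30.8 and 65 signal units for C and between 35.7 and 62.1 for 24 h on MOE430A, and between 17.5 and 25 and between 13.2 and 22.1 on MOE430B, so the groups overlapped in brightness. Across probesets, levels of pools within C correlated with r of 0.93 to 0.951 on MOE430A, against 0.879 to 0.947 within 24 h and 0.863 to 0.935 between the groups. On MOE430B the same ranges were 0.826 to 0.837, 0.776 to 0.841 and 0.76 to 0.837. These correlations are across genes, which are not independent replicates.

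On the MOE430A array of 24 h pool 3, some values stood apart from their probesets. Its first 100 rows, which are the probesets printed on both chips, correlated with the other arrays at r = -0.000725, and its last 113 rows at 0.334, against 0.953 elsewhere on the array. The shared probesets of this pool gave r = 0.048 between its 2 chips, whereas the other 8 pools gave 0.942 to 0.98. These 213 probesets were left out on MOE430A in all pools, and the 100 shared ones were read from MOE430B. With the misplaced values kept, 154 probesets were called in place of 169.

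**Figure D1:**
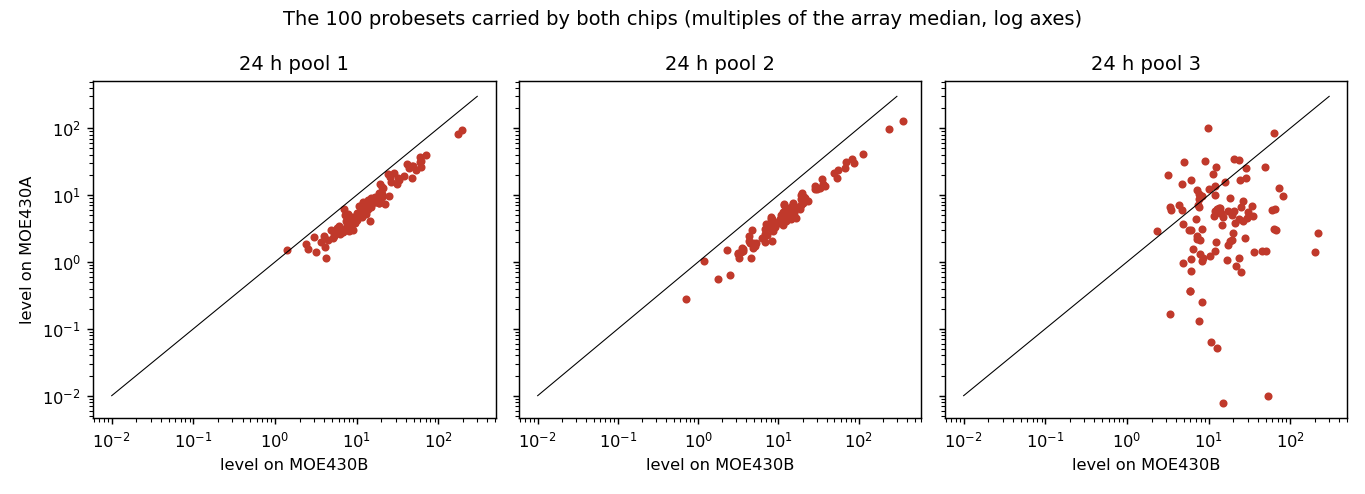
Level of each of the 100 probesets shared by both chips, MOE430B on the x axis and MOE430A on the y axis (signal divided by array median, both on log scales), for 24 h pools 1, 2 and 3. Points of pools 1 and 2 follow a line (r of 0.967 and 0.98), and those of pool 3 do not (r = 0.048).

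Of 33652 probesets bright enough to be tested, 169 (0.502%) differed between 24 h and C at an adjusted p under 0.1. Messenger RNA abundance was higher at 24 h for 121 (0.360%) and lower for 48 (0.143%), and these probesets represented 109 and 41 named genes. At an unadjusted p under 0.05, 1703 (5.06%) were higher and 1191 (3.54%) lower. In 3255 (9.67%) all 24 h pools lay above all C pools, and in 2432 (7.23%) all lay below. Among the 15121 genes represented by their brightest tested probeset, 88 (0.582%) were called higher and 33 (0.218%) lower, with a median log2 change over all genes of 0.04. By the same probesets all 24 h pools lay above all C pools in 11.6% of genes and below them in 7.51%. The share of calls that were higher depended on the scaling of the arrays. It was 71.6% with the array median, 53.7% (122 higher and 105 lower) after quantile normalization and 57.1% (108 and 81) with trimmed mean scaling.

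The called changes were large, the smallest being 0.89 among those higher and -0.96 among those lower on the log2 scale. With 3 pools per group smaller changes can seldom pass, so these sizes in part reflect the test. Of the 121 probesets called higher, 117 exceeded a 2-fold change, 38 a 4-fold change and 14 an 8-fold change. Of the 48 called lower, 46 exceeded 2-fold, 7 exceeded 4-fold and 0 exceeded 8-fold. Probesets called higher had a median C level of 2.67 and those called lower 7.33, against 1.52 over all probesets tested. Among those called higher, 31 lay below the array median in C. Detection calls were not used, so whether such faint C levels stood above background is not known, and folds that start from them are uncertain in size. The filter averaged all 9 pools, so a probeset faint in C could pass it only through the clenbuterol pools. This held for Slc7a5, Tubb6, S100a8, Gm5481 and 6430548M08Rik (1434505_a_at), whose C signals all lay below the cut. Their calls favour increases by that route. The number of calls depended on single pools. It fell to 24, 25 and 36 without C pool 1, 2 or 3, and to 80, 56 and 24 without 24 h pool 1, 2 or 3. Leaving out a 10 D pool, which lends only its spread, gave 241, 443 and 73. In all 9 of these fits 17 calls were kept, and 83 calls were lost in 7 of the fits, those without a C or 24 h pool and that without 10 D pool 3. Adjusted p-values without a named pool are given with each group of genes.

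**Figure D2:**
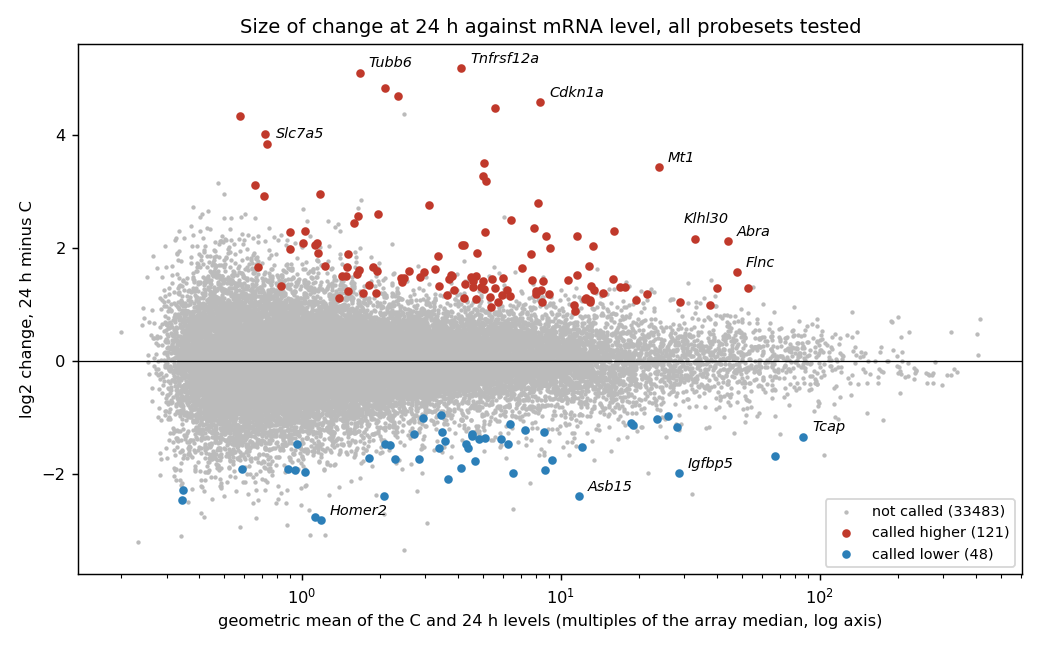
Log2 change at 24 h relative to C (y axis) against the geometric mean level over the 6 pools (x axis, signal divided by array median, log scale) for 33652 tested probesets, with the 121 called higher and 48 called lower in colour. Called probesets lie mostly beyond a log2 change of 1 in either direction, and calls higher reach larger sizes than calls lower.

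The 20 largest increases and 20 largest decreases were picked only among called probesets whose C and 24 h pools do not overlap. Separation of the pools was therefore required of these genes and is not a result. Among genes with the largest increases, Cdkn1a, which encodes the cell cycle inhibitor p21, had the smallest p of all probesets. Its probeset 1424638_at measured 1.51, 2.04 and 1.54 in the C pools and 40.8, 33.8 and 47.04 at 24 h (log2 change 4.58, SE 0.231, adjusted p = 4.91e-05). No 24 h pool came near a C pool, and probeset 1421679_a_at gave a log2 change of 4.69 (adjusted p = 0.0303). Tnfrsf12a, the receptor of the cytokine TWEAK, which appears on injured or denervated fibres, measured 0.718, 0.651 and 0.668 in the C pools and 29.1, 19.7 and 25.9 at 24 h at probeset 1418571_at. This was 36.3-fold higher (adjusted p = 0.0031), and probeset 1418572_x_at gave 4.47 on the log2 scale (adjusted p = 0.019). Tubb6, a beta-tubulin isotype, measured 0.419, 0.189 and 0.245 in the C pools and 14.1, 5.71 and 9.66 at 24 h, again with wide separation (adjusted p = 0.00364). The transcript 1110046J04Rik, of unknown function, measured 0.120, 0.548 and 0.626 in the C pools and 7.04, 14.1 and 9.54 at 24 h (log2 change 4.83, SE 0.562, adjusted p = 0.00658). Cdkn1a probeset 1421679_a_at lost its call without C pool 1 or 2 or 24 h pool 1 or 3 (adjusted p from 0.102 to 0.176). Tnfrsf12a probeset 1418572_x_at lost its call without C pool 1 or 2 or 24 h pool 3 (adjusted p from 0.101 to 0.11). Tnfrsf12a probeset 1418571_at, Cdkn1a probeset 1424638_at, Tubb6 and 1110046J04Rik kept their calls without any 1 of the 9 pools.

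Slc7a5, the light chain of the LAT1 transporter for leucine and other large neutral amino acids, was faint in C and rose in each 24 h pool. Its C signals all lay below the filter cut, so it was tested only through the clenbuterol pools. Its levels were 0.153, 0.179 and 0.25 in the C pools and 2.22, 3.20 and 2.85 at 24 h, an increase of 14.4-fold (SE 0.330 on the log2 scale, adjusted p = 0.00232). Kcnk1, a potassium leak channel, measured 0.2403, 0.249 and 0.0794 in the C pools and 2.47, 2.55 and 3.23 at 24 h (adjusted p = 0.0206). Pmvk, phosphomevalonate kinase of cholesterol synthesis, measured 1.44, 1.87 and 1.23 in the C pools and 19.8, 6.23 and 23.8 at 24 h (adjusted p = 0.0207). Pools did not overlap in any of these, as their choice required. Htra1, a secreted serine protease that acts on extracellular matrix and TGF-beta family signals, measured 2.22, 3.72 and 3.28 in the C pools and 16.98, 28.98 and 18.5 at 24 h (log2 change 2.80, SE 0.297, adjusted p = 0.00639), with 1.36 at another probeset. Ifi30, a lysosomal thiol reductase of antigen processing, measured 2.57, 1.98 and 0.801 in the C pools and 17.03, 10.6 and 16.6 at 24 h (log2 change 3.17, SE 0.413, adjusted p = 0.0206). C pool 3 was the lowest for Ifi30 and the C pools spread widely, yet every 24 h pool stood above them. Ifi30 and Kcnk1 lost their calls without 24 h pool 3 (adjusted p from 0.118 to 0.119). Pmvk lost its call without C pool 1 or 3 or 24 h pool 3 (adjusted p from 0.107 to 0.13). Slc7a5 and Htra1 kept their calls without any 1 of the 9 pools.

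Less well known transcripts were also among the largest increases. Pknox1, a homeodomain factor that partners with Pbx proteins, measured 0.914, 0.616 and 0.528 in the C pools and 2.70, 4.71 and 3.72 at 24 h (log2 change 2.44, SE 0.339, adjusted p = 0.0206). Gm5481, 6430548M08Rik, 2010003K11Rik and Srrd gave log2 changes of 3.11, 2.92, 2.60 and 2.57, with adjusted p of 0.0227, 0.0415, 0.0408 and 0.0619. The increases of Pknox1 and Srrd were each seen at a single probeset, with other probesets of the gene between -0.32 and -0.04. Pknox1 lost its call without C pool 2 or 24 h pool 3 (adjusted p from 0.111 to 0.119). Gm5481 lost its call without C pool 1 or 24 h pool 2 or 3 (adjusted p from 0.105 to 0.118). 6430548M08Rik lost its call without any C pool or 24 h pool 2 or 3 (adjusted p from 0.119 to 0.193). 2010003K11Rik lost its call without C pool 2 or any 24 h pool (adjusted p from 0.102 to 0.159). Srrd lost its call without C pool 1 or 2, any 24 h pool or 10 D pool 3 (adjusted p from 0.124 to 0.265).

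Decreases were smaller, and the largest were in genes of varied function. Asb15, a muscle ankyrin repeat protein with a SOCS box that recruits ubiquitin ligases, measured 25.2, 25.96 and 28.9 in the C pools and 4.04, 6.32 and 5.07 at 24 h (log2 change -2.40, SE 0.225, adjusted p = 0.00232). The groups lay far apart, with 24 h pool 2 the closest to C. Homer2, a scaffold of calcium signalling complexes, measured 3.47, 2.65 and 2.37 in the C pools and 0.959, 0.303 and 0.213 at 24 h (log2 change -2.82, SE 0.583, adjusted p = 0.0969), with -0.81 and -1.15 at other probesets. Cd247, the zeta chain of the T cell receptor complex, measured 0.581, 1.10 and 0.720 in the C pools and 0.1498, 0.0896 and 0.205 at 24 h (log2 change -2.46, SE 0.487, adjusted p = 0.0969). Klf12, a zinc finger repressor, measured 0.854, 0.637 and 0.822 in the C pools and 0.158, 0.165 and 0.149 at 24 h (adjusted p = 0.0609), but its other probesets gave changes from -1.46 to 0.80. Gadd45g, a stress-response gene, measured 7.11, 7.88 and 7.495 in the C pools and 1.64, 2.13 and 1.57 at 24 h (log2 change -2.09, SE 0.274, adjusted p = 0.0206). Its C pools lay close together, and its 24 h pools lay far below them. Homer2 lost its call without any C pool, 24 h pool 2 or 3 or 10 D pool 3 (adjusted p from 0.145 to 0.373). Cd247 lost its call without any C or 24 h pool or 10 D pool 1 or 3 (adjusted p from 0.111 to 0.408). Klf12 lost its call without any C or 24 h pool or 10 D pool 3 (adjusted p from 0.12 to 0.293). Gadd45g lost its call without any C pool or 24 h pool 3 (adjusted p from 0.1 to 0.128). Asb15 kept its call without any 1 of the 9 pools.

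Enzymes, transcription factors and other genes completed the largest decreases. Neu2, the cytosolic sialidase, measured 1.77, 2.65 and 1.58 in the C pools and 0.749, 0.322 and 0.520 at 24 h (adjusted p = 0.0708). Fn3k, which removes sugar adducts from proteins, measured 1.01, 1.23 and 1.10 in the C pools and 0.187, 0.370 and 0.370 at 24 h (adjusted p = 0.075). Prkg1, the cGMP-dependent protein kinase, measured 19.4, 20.6 and 21.3 in the C pools and 7.85, 6.74 and 6.79 at 24 h (adjusted p = 0.0206). In all of these every 24 h pool lay below every C pool, as their choice required. Log2 changes of -1.93 for the transcription factor Tfcp2l1, -1.91 for the adhesion protein Iglon5, -1.74 for the Rab GTPase activator Tbc1d10c, -1.72 for Cuedc1 and -1.54 for the magnesium transporter gene Slc41a3 came with adjusted p of 0.0314 to 0.091. A second probeset of Iglon5 gave 0.36 on the log2 scale. Gm13306 gave -2.39 (adjusted p = 0.0702). Fn3k, Tfcp2l1, Iglon5 and Slc41a3 lost their calls without any C or 24 h pool or 10 D pool 3 (adjusted p from 0.12 to 0.337). Neu2 lost its call without any C pool, 24 h pool 2 or 3 or 10 D pool 3 (adjusted p from 0.124 to 0.312). Prkg1 lost its call without any C pool or 24 h pool 3 (adjusted p from 0.1 to 0.12). Tbc1d10c lost its call without any C pool or 24 h pool 2 or 3 (adjusted p from 0.105 to 0.154). Cuedc1 lost its call without any C or 24 h pool (adjusted p from 0.1 to 0.257). Gm13306 lost its call without any C pool, 24 h pool 3 or 10 D pool 3 (adjusted p from 0.124 to 0.297).

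**Figure D3:**
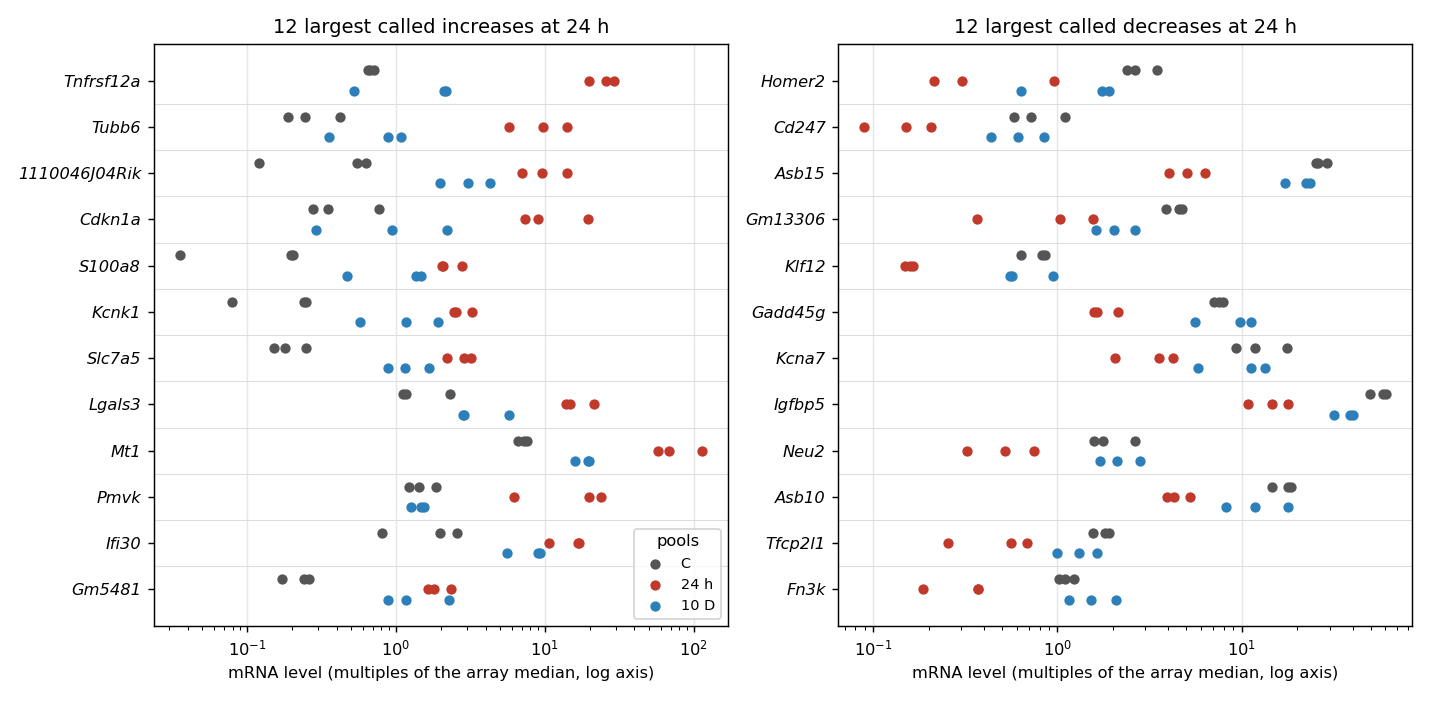
Level per pool (signal divided by array median, log scale) of the 12 largest called increases and the 12 largest called decreases at 24 h, with the 3 pools each of C, 24 h and 10 D as points. For each gene all 24 h pools lie on 1 side of all C pools, because only such genes were eligible. Many 10 D pools lie between. Cdkn1a is drawn by probeset 1421679_a_at.

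Gene lists were then read by the role of their members, from the receptor inwards, each gene by its brightest tested probeset. The 44 lists held 1093 tested genes, of which 50 were called, against 0.800% of all genes, and 57 were called at any probeset, against 0.992%. These genes were grouped with earlier results of these data known, so the share is a description. Over all genes 53.6% of changes lay above 0 and 46.4% below, and counts of members above or below 0 stand beside these shares. At an unadjusted p under 0.05, 6.08% of all genes were higher and 3.52% lower. Counts of list members and cell type markers at that threshold stand beside these. By the brightest probeset nothing was called among 20 tested genes for G proteins, adenylyl cyclases and desensitisation. Their median log2 change was 0.196, against 0.04 over all genes. Beta-adrenergic receptor genes were not analysed here. Adcy9, an adenylyl cyclase, was called at another probeset, 1419811_at. There it fell from 9.15, 8.19 and 10.7 to 4.49, 3.49 and 4.996 (log2 change -1.12, SE 0.211, adjusted p = 0.0797). Its other probesets gave -0.73, -1.20 and -0.97 and were not called. Adcy4 gave 0.79 (adjusted p = 0.591) and Arrb1, beta-arrestin-1 of receptor desensitisation, 0.56 (adjusted p = 0.562). Of 23 genes of cAMP breakdown and protein kinase A, 1 was called lower and 22 were not called, with a median of 0.01. That gene was Akap6, a muscle scaffold that anchors protein kinase A at the nuclear envelope, which measured 17.2, 17.7 and 15.4 in the C pools and 4.56, 4.20 and 6.48 at 24 h (log2 change -1.75, SE 0.309, adjusted p = 0.0597), and 0.23 was read at another probeset. Pde4d, a cAMP phosphodiesterase, gave 0.79 (adjusted p = 0.562). Adcy9 lost its call without any C or 24 h pool or 10 D pool 3 (adjusted p from 0.145 to 0.314). Akap6 lost its call without any C or 24 h pool (adjusted p from 0.141 to 0.257).

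Among 29 cAMP-induced and immediate early genes, 1 was called higher and 0 lower, with a median of 0.087. At an unadjusted p under 0.05, 4 were higher and 2 lower, against 6.08% and 3.52% of all genes. Crem, the cAMP response element modulator, measured 1.53, 1.03 and 0.827 in the C pools and 2.96, 2.65 and 4.54 at 24 h (log2 change 1.59, SE 0.302, adjusted p = 0.081). Its pools did not overlap, though other probesets of Crem gave 0.63 and -0.52. Nr4a1, an orphan nuclear receptor induced early by beta-agonists, was at 21.5, 22.8 and 21.6 in the C pools and 12.98, 13.2 and 14.7 at 24 h and was not called (-0.69, adjusted p = 0.251). Klf2, a vascular transcription factor, gave -1.05 (adjusted p = 0.314). In the list of PGC-1 coactivators and mitochondrial regulators 0 of 14 were called by the brightest probeset (median 0.135). Ppargc1a, which encodes PGC-1alpha, rose at 2 of its 5 tested probesets. Probeset 1434100_x_at measured 1.67, 2.44 and 2.64 in the C pools and 5.90, 5.59 and 7.56 at 24 h (log2 change 1.51, SE 0.264, adjusted p = 0.0647) and 1434099_at gave 1.45 (adjusted p = 0.081), whereas the others gave -0.33, 0.33 and 0.36. Crem and Ppargc1a probeset 1434100_x_at lost their calls without any C or 24 h pool or 10 D pool 3 (adjusted p from 0.122 to 0.323). Ppargc1a probeset 1434099_at lost its call without any C pool, 24 h pool 2 or 3 or 10 D pool 3 (adjusted p from 0.145 to 0.335).

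Of 17 circadian clock genes, 1 was called higher and 0 lower, with a median of 0.01. At an unadjusted p under 0.05, 3 were higher and 3 lower, against 6.08% and 3.52% of all genes. Arntl, the clock activator BMAL1, measured 0.812, 1.29 and 1.06 in the C pools and 3.18, 2.66 and 4.19 at 24 h (log2 change 1.67, SE 0.259, adjusted p = 0.0415), and a further probeset gave 0.12. Clock, its partner, gave 1.13 (adjusted p = 0.102), and Hlf, an output factor of the clock, gave -1.18 (adjusted p = 0.144). Of 15 cell cycle inhibitors and cyclins, Cdkn1a was called and 14 were not (median -0.0918). Cyclin D1 (Ccnd1) gave 0.68 (adjusted p = 0.372) and cyclin D3 (Ccnd3) -1.37 (adjusted p = 0.562). Of 25 Gadd45, p53-target and stress-kinase genes, Gadd45g was the 1 called lower and 0 were called higher (median -0.111). Map2k6, an activator of p38 kinase, gave -1.37 (adjusted p = 0.177) and Phlda3, a p53 target, 0.75 (adjusted p = 0.171). Arntl lost its call without any C pool or 24 h pool 1 or 3 (adjusted p from 0.122 to 0.222). Gadd45g lost its call without any C pool or 24 h pool 3 (adjusted p from 0.1 to 0.128). Cdkn1a probeset 1424638_at kept its call without any 1 of the 9 pools.

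Metallothioneins, small proteins that bind zinc and copper and are induced by metals, glucocorticoids and injury, were among the clearest increases. Of 13 genes for metallothioneins and zinc handling, 2 were called higher and 0 lower (median 0.147). Mt1 measured 7.60, 7.21 and 6.63 in the C pools and 67.8, 114 and 58.05 at 24 h (log2 change 3.42, SE 0.257, adjusted p = 0.00128). Mt2 measured 4.77, 4.04 and 7.28 in the C pools and 34.6, 21.9 and 18.3 at 24 h (log2 change 2.21, SE 0.321, adjusted p = 0.0303). Every 24 h pool stood above every C pool for both genes, with the smallest gap for Mt2 between C pool 3 and 24 h pool 3. A second probeset of Mt1 gave -0.17. Slc39a10, a zinc importer, gave 1.06 (adjusted p = 0.119). Mt2 lost its call without C pool 1 or 2 (adjusted p from 0.168 to 0.181). Mt1 kept its call without any 1 of the 9 pools.

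The promoters of both metallothionein genes hold the core of the metal response element, to which the zinc sensor MTF-1 binds, and are shown because both genes rose. Sequences are from RefSeq (GRCm38.p6), 5′ to 3′ on the strand of the gene (plus for both), with the core (TGCACNC or TGCGCNC, or its reverse complement) in capitals. The Mt1 window is chr8:94179055-94179084, with the core 23 bases before the start of the gene. The Mt2 windows are chr8:94172384-94172413, chr8:94172479-94172508 and chr8:94172557-94172586, with the core 223, 128 and 50 bases before the start.
Mt1: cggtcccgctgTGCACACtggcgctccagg
Mt2, first: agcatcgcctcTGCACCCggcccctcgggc
Mt2, next: cgcagacccttTGCGCTCagctcctttgct
Mt2, nearest: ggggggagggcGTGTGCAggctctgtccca
The last of these reads on the opposite strand. The core is short and common, and is given with its share over all promoters at the end of the results. A match describes letters, not binding.

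Signs of stress and injury were uneven. Of 17 TWEAK and NF-kappaB genes, Tnfrsf12a was called higher and 0 lower (median 0.21). Tnfrsf1a, a TNF receptor, gave 0.53 (adjusted p = 0.476) and Rela, an NF-kappaB subunit, 0.42 (adjusted p = 0.606). Of 31 injury and inflammation genes 2 were called higher and 0 lower (median 0.03). Lgals3, galectin-3, a lectin of activated macrophages and regenerating fibres, measured 1.12, 1.17 and 2.32 in the C pools and 13.99, 21.4 and 14.7 at 24 h (adjusted p = 0.00639). Cxcl12, a chemokine, measured 7.34, 6.54 and 6.67 in the C pools and 20.7, 17.4 and 20.7 at 24 h (adjusted p = 0.0211), while its other probesets gave 0.07 and -0.28. Lcn2, lipocalin-2, had the largest change of the list but was not called. Its levels were 0.666, 0.205 and 0.738 in the C pools and 15.9, 3.77 and 14.8 at 24 h (log2 change 4.37, SE 0.930, adjusted p = 0.119). Cxcl12 lost its call without any C pool or 24 h pool 3 (adjusted p from 0.112 to 0.152). Lgals3 kept its call without any 1 of the 9 pools.

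Of 28 glutathione and thioredoxin genes, 1 was called higher and 0 lower, with a median of -0.0203. Srxn1, sulfiredoxin, which repairs oxidised peroxiredoxins and is a target of NRF2, measured 0.7403, 1.61 and 1.13 in the C pools and 7.59, 4.19 and 13.1 at 24 h (log2 change 2.76, SE 0.476, adjusted p = 0.0619). Its 24 h pools spread widely and did not reach the C pools, and its other probesets gave 0.69, 1.65 and 1.22. The glutathione transferases Gsta4 and Gstm2 gave -0.98 (adjusted p = 0.247) and -0.73 (adjusted p = 0.428). Of 29 heat shock proteins and chaperones, 1 was called higher and 0 lower (median 0.227). At an unadjusted p under 0.05, 9 were higher and 1 lower, against 6.08% and 3.52% of all genes. Hspb8, a small heat shock protein of chaperone-assisted autophagy in muscle, measured 23.9, 25.01 and 27.2 in the C pools and 50.7, 76.2 and 61.8 at 24 h (log2 change 1.29, SE 0.245, adjusted p = 0.081). Its other probesets gave 0.14 and 0.77, with groups that overlapped. Hspb7 gave 1.11 (adjusted p = 0.249) and Cryab, alphaB-crystallin, 0.86 (adjusted p = 0.192). Srxn1 lost its call without any C pool, 24 h pool 1 or 3 or 10 D pool 3 (adjusted p from 0.124 to 0.272). Hspb8 lost its call without any C or 24 h pool or 10 D pool 3 (adjusted p from 0.136 to 0.331).

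Cytoskeletal genes held the most calls of any list, though lists were grouped with earlier results of these data known. Of 47 genes for SRF, Abra and the actin cytoskeleton, 6 were called higher and 0 lower, with 30 above and 17 below a log2 change of 0 and a median of 0.213. Abra, also called STARS, which promotes SRF-dependent transcription, measured 22.1, 17.2 and 24.6 in the C pools and 84.7, 103 and 88.01 at 24 h (adjusted p = 0.00894). Flnc, filamin C, the muscle actin cross-linker at Z-discs, measured 25.7, 26.3 and 31.2 in the C pools and 70.96, 82.6 and 94.3 at 24 h (log2 change 1.57, SE 0.301, adjusted p = 0.0743), and another probeset gave 0.76. Vcl, vinculin, which ties actin to integrin adhesions, measured 14.3, 13.6 and 12.4 in the C pools and 29.8, 26.5 and 28.4 at 24 h (log2 change 1.07, SE 0.178, adjusted p = 0.0528), with 0.60 at a further probeset. Neither gene overlapped between groups. Tpm4, a cytoskeletal tropomyosin, measured 5.68, 5.31 and 4.92 in the C pools and 11.6, 13.9 and 10.9 at 24 h (log2 change 1.19, SE 0.203, adjusted p = 0.0609). Hopx, a homeodomain-only protein that restrains SRF, measured 3.86, 3.79 and 4.21 in the C pools and 8.24, 8.61 and 9.88 at 24 h (log2 change 1.17, SE 0.187, adjusted p = 0.0456), with 1.58 (adjusted p = 0.102) at another probeset. Raph1, a binder of Ena/VASP proteins at the leading edge of cells, gave 1.42 (adjusted p = 0.0207), with 0.86 and 0.58 at other probesets. The 5 Arp2/3 members with a symbol in the platform annotation had 0 called. A further probeset, 1448279_at, has no symbol there and is paired with Arpc3, a subunit of the Arp2/3 complex, in the probe list of the study. It is not in these counts, was named after its values were seen, and measured 7.997, 7.77 and 8.95 in the C pools and 23.2, 18.8 and 19.8 at 24 h (log2 change 1.32, SE 0.186, adjusted p = 0.0271). Its groups lay far apart, and it lost its call without any C pool or 24 h pool 3 (adjusted p from 0.1 to 0.176). The reference gene Actb gave 0.21 (adjusted p = 0.901). Vcl and Tpm4 lost their calls without any C or 24 h pool or 10 D pool 3 (adjusted p from 0.117 to 0.251). Flnc and Hopx lost their calls without any C or 24 h pool (adjusted p from 0.114 to 0.331). Raph1 lost its call without any C pool or 24 h pool 3 (adjusted p from 0.115 to 0.128). Abra kept its call without any 1 of the 9 pools.

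Of the 87 genes called higher with a promoter in the table, 4 held a CArG element, the binding letters of SRF, within 250 bases before to 50 bases after the start. These were Hopx, Prune2, Rnf128 and Vcl. The windows of Hopx and Vcl are shown because both are members of the SRF list, with the element in capitals, 5′ to 3′ on the strand of the gene. They lie at chr5:77115187-77115216 (minus strand, 83 bases before the start) and chr14:20929161-20929190 (plus strand, 227 bases before) in GRCm38.p6.
Hopx: taacccgagtCCAAATAAGGaagctgggga
Vcl: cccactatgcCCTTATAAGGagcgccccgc

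Of 20 tubulin and microtubule genes, 1 was called higher by its brightest probeset and 0 lower, with 17 of 20 changes above 0 and a median of 0.381. Tubb5, a ubiquitous beta-tubulin, measured 5.47, 5.67 and 5.19 in the C pools and 12.7, 13.2 and 13.1 at 24 h (log2 change 1.26, SE 0.183, adjusted p = 0.0303). Pools of each group lay close together and the groups far apart, but a further probeset gave -0.09. Tubb6, described above, was called at a probeset other than its brightest, which gave 0.36. Tubb2a gave 1.42 (adjusted p = 0.144). Of 15 nuclear envelope genes, Emd, the inner membrane protein emerin, was called higher and 14 were not called (median 0.007). Emd measured 2.51, 2.77 and 2.73 in the C pools and 14.7, 11.8 and 19.7 at 24 h (adjusted p = 0.00364). Syne1 and Sun2, which link the nucleus to the cytoskeleton, gave -0.57 (adjusted p = 0.483) and -0.52 (adjusted p = 0.43). Tubb5 lost its call without any C pool or 24 h pool 2 or 3 (adjusted p from 0.101 to 0.182). Emd and Tubb6 kept their calls without any 1 of the 9 pools.

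Stretch-response and muscle ankyrin repeat genes had 1 call lower and 0 higher among 21 (median -0.163). Tcap, telethonin, the Z-disc cap of titin, measured 162, 121 and 127 in the C pools and 57.5, 39.9 and 66.6 at 24 h (log2 change -1.34, SE 0.247, adjusted p = 0.0743). No 24 h pool reached the lowest C pool. Ankrd1, a stretch-induced ankyrin repeat protein, measured 0.513, 0.322 and 0.678 in the C pools and 12.8, 0.986 and 2.43 at 24 h and was not called (2.70, adjusted p = 0.262). Csrp3, muscle LIM protein, gave 1.40 (adjusted p = 0.24). Among 10 muscle kelch and cullin genes 2 were called higher and 0 lower, though the median was -0.407. Klhl30 measured 15.3, 15.6 and 15.5 in the C pools and 56.96, 77.9 and 73.99 at 24 h (adjusted p = 0.00639). Klhl40, which stabilises thin filament proteins, measured 34.9, 32.8 and 33.9 in the C pools and 84.3, 79.2 and 84.2 at 24 h (log2 change 1.29, SE 0.257, adjusted p = 0.085). Kbtbd13 gave -0.84 (adjusted p = 0.147). Tcap and Klhl40 lost their calls without any C or 24 h pool or 10 D pool 3 (adjusted p from 0.124 to 0.355). Klhl30 kept its call without any 1 of the 9 pools.

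Genes for making protein held few single calls. Of 44 ribosome biogenesis genes, 36 lay above a log2 change of 0 and 8 below, with a median of 0.298 against 0.04. The adjusted threshold was passed by 1 higher and 0 lower, and 10 were higher and 1 lower at an unadjusted p under 0.05, against 6.08% and 3.52% over all genes. Tsr1, a factor of small subunit maturation, measured 8.59, 8.15 and 8.59 in the C pools and 15.5, 23.8 and 16.8 at 24 h (log2 change 1.12, SE 0.206, adjusted p = 0.0647). Rrp12 and Nop56, also of ribosome assembly, gave 1.41 (adjusted p = 0.102) and 1.15 (adjusted p = 0.119). Among 41 cytosolic ribosomal protein genes 32 were above 0 and 0 were called (median 0.257, and 0.171 after quantile normalization), with Rpl11 at 0.61 (adjusted p = 0.489). Tsr1 lost its call without any C pool, 24 h pool 2 or 3 or 10 D pool 3 (adjusted p from 0.124 to 0.281).

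Of 44 translation factors, 0 were called by their brightest probeset, 27 lay above 0 and 17 below, and the median was 0.101, or 0.057 after quantile normalization. Of the 9 elongation and termination factors 3 lay above 0 and 6 below. At an unadjusted p under 0.05, 8 of the 44 were higher and 0 lower, against 6.08% and 3.52% of all genes. All 8 were among the 35 initiation factors. Eif4a1, the helicase of cap-dependent initiation, rose at probeset 1434985_a_at. It measured 8, 7.79 and 7.98 in the C pools and 15.6, 14.4 and 17.5 at 24 h (log2 change 1.00, SE 0.191, adjusted p = 0.0869), with 0.95 and 0.42 at other probesets. Eif4e2 and Eif2b4 gave 1.07 (adjusted p = 0.221) and 0.96 (adjusted p = 0.222). Of 38 tRNA synthetases and ATF4 targets, 1 was called higher and 0 lower (median 0.211), with 15 of 20 synthetases above 0, and 9 above and 9 below among ATF4 and its targets. Eprs, glutamyl-prolyl-tRNA synthetase, measured 13.7, 13.5 and 15.7 in the C pools and 27.4, 40.3 and 30.3 at 24 h (log2 change 1.18, SE 0.218, adjusted p = 0.075). Its other probesets gave 1.00, 0.70 and -0.03 and were not called. Chac1, an ATF4 target that degrades glutathione, measured 8.47, 9.24 and 6.404 in the C pools and 0.670, 1.46 and 1.32 at 24 h and was not called (-2.86, adjusted p = 0.119), and Ppp1r15a gave 1.49 (adjusted p = 0.133). Eif4a1 and Eprs lost their calls without any C or 24 h pool or 10 D pool 3 (adjusted p from 0.133 to 0.33).

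Amino acid transporters had 2 calls higher and 0 lower among 19 genes and a median of 0.426. At an unadjusted p under 0.05, 6 were higher and 1 lower, against 6.08% and 3.52% of all genes. Beside Slc7a5, the call was Slc38a2, the sodium-coupled SNAT2 transporter that cells induce when amino acids run short. Its levels were 10.02, 12 and 11.6 in the C pools and 25.3, 32.7 and 25.2 at 24 h (log2 change 1.30, SE 0.194, adjusted p = 0.0344), with no overlap, while its other probesets gave 0.41 and 0.30. Slc7a1, the carrier of arginine and lysine, gave 0.91 (adjusted p = 0.109). Of 8 polyamine genes 0 were called by their brightest probeset (median 0.092). Probeset 1448484_at, likewise without a symbol in the platform annotation, is paired in the probe list of the study with Amd1, S-adenosylmethionine decarboxylase of polyamine synthesis. It measured 141, 98.4 and 121 in the C pools and 39.8, 30.6 and 42.3 at 24 h (log2 change -1.68, SE 0.223, adjusted p = 0.0207), so it fell in every 24 h pool. It is not among the 8, was named after its values were seen, and lost its call without C pool 1 or 3 (adjusted p from 0.106 to 0.135). Odc1, ornithine decarboxylase, the first enzyme of polyamine synthesis, rose at probeset 1427364_a_at, where it measured 3.41, 3.12 and 4.28 in the C pools and 7.11, 7.41 and 8.95 at 24 h (log2 change 1.12, SE 0.206, adjusted p = 0.0743), and gave 0.44 and 0.79 at its other probesets. Smox, spermine oxidase, gave -1.35 (adjusted p = 0.239) and Oaz1, the antizyme that restrains Odc1, -0.41 (adjusted p = 0.673). Slc38a2 lost its call without any C pool or 24 h pool 2 or 3 (adjusted p from 0.117 to 0.222). Odc1 lost its call without any C or 24 h pool or 10 D pool 3 (adjusted p from 0.139 to 0.323).

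For protein breakdown, 0 of 38 proteasome genes (median 0.196), 0 of 33 autophagy and lysosome genes (median -0.0178) and 0 of 25 atrophy ligases and FoxO factors (median -0.136) were called by their brightest probeset. Psmb3, a core subunit, gave 1.04 (adjusted p = 0.558) and Ulk2, an autophagy kinase, -0.67 (adjusted p = 0.482). Mul1, a mitochondrial ligase, gave 1.25 (adjusted p = 0.146) and the conjugating enzyme Ube2d1 -1.60 (adjusted p = 0.302). Siah2, a RING ubiquitin ligase of hypoxia signalling, rose at a probeset that measured 0.513, 0.216 and 0.528 in the C pools and 2.38, 1.52 and 1.84 at 24 h (log2 change 2.28, SE 0.417, adjusted p = 0.0743), and another probeset gave 0.71. The Asb family had 2 calls lower and 0 higher among 18 genes, with 15 below 0 and a median of -0.355. Beside Asb15 the call was Asb10, both of whose tested probesets were called. Probeset 1421466_at measured 14.6, 18.4 and 17.8 in the C pools and 5.24, 3.93 and 4.26 at 24 h (log2 change -1.93, SE 0.279, adjusted p = 0.0303), and 1441581_at gave -1.55 (adjusted p = 0.075). Asb14 gave -1.39 (adjusted p = 0.115). Siah2 lost its call without any C or 24 h pool or 10 D pool 3 (adjusted p from 0.139 to 0.253). Asb10 probeset 1421466_at lost its call without any C pool or 24 h pool 2 or 3 (adjusted p from 0.105 to 0.171). Asb10 probeset 1441581_at lost its call without any C pool, 24 h pool 1 or 2 or 10 D pool 3 (adjusted p from 0.127 to 0.326). Asb15 kept its call without any 1 of the 9 pools.

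The growth hormone and IGF axis showed calls in both directions. Of 19 genes, 1 was called higher and 3 lower, with 15 below 0 and a median of -0.353. Igf1, a growth factor for fibres and satellite cells, measured 12.04, 8.49 and 8.34 in the C pools and 23.2, 19.5 and 23.2 at 24 h (log2 change 1.21, SE 0.211, adjusted p = 0.0647), and its other probesets gave 1.27, 0.71 and 0.53. Ghr, the growth hormone receptor, measured 36.4, 36.2 and 36.2 in the C pools and 20.4, 17.2 and 17.7 at 24 h (log2 change -0.98, SE 0.190, adjusted p = 0.0909). The C pools of Ghr were nearly identical in level, and all 24 h pools were lower, with -0.36 and -1.36 at other probesets, neither called. Igfbp5, a binding protein that holds IGFs in the matrix, measured 60.9, 58.7 and 49.5 in the C pools and 17.9, 14.6 and 10.8 at 24 h (adjusted p = 0.00972), although a second probeset gave 0.07. Grb14, an adaptor that blocks the insulin receptor, measured 3.31, 3.42 and 3.70 in the C pools and 1.29, 0.966 and 1.55 at 24 h (log2 change -1.48, SE 0.296, adjusted p = 0.099). Igf1, Ghr and Grb14 lost their calls without any C or 24 h pool or 10 D pool 3 (adjusted p from 0.12 to 0.337). Igfbp5 kept its call without any 1 of the 9 pools.

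Downstream of these receptors, 0 of 26 insulin, Akt and mTOR genes were called (median 0.049). Ddit4, an inhibitor of mTOR signalling, gave -1.07 (adjusted p = 0.249), Rheb, an mTOR activator, 0.72 (adjusted p = 0.282) and Mtor itself 0.49 (adjusted p = 0.508). Myostatin and activins limit muscle mass through activin receptors and SMAD proteins. Of 34 genes of this pathway 1 was called lower and 0 higher (median 0.004). That gene was Acvr1b, the activin receptor ALK4, which measured 10.6, 10.2 and 12.2 in the C pools and 5.66, 3.63 and 5.03 at 24 h (log2 change -1.23, SE 0.214, adjusted p = 0.0647), while another probeset gave 0.35. Acvr2b, the myostatin receptor, fell at a probeset that measured 5.09, 6.20 and 4.25 in the C pools and 1.87, 1.55 and 1.26 at 24 h (adjusted p = 0.021), while its brightest probeset gave -0.72 and was not called. Acvr2a gave 0.51 (adjusted p = 0.447). Acvr2b lost its call without C pool 1 or 2 or 24 h pool 3 (adjusted p from 0.119 to 0.152). Acvr1b lost its call without any C pool, 24 h pool 2 or 3 or 10 D pool 3 (adjusted p from 0.127 to 0.262).

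Of 26 myogenic and Mef2 factors, 1 was called higher and 0 lower (median -0.068). Myog, myogenin, the factor of myoblast differentiation that also rises after denervation, measured 2.31, 1.54 and 2.35 in the C pools and 9.11, 10.1 and 6.53 at 24 h (log2 change 2.06, SE 0.336, adjusted p = 0.0494). Each 24 h pool was well above each C pool. Tead1 and Vgll2, its cofactor, gave -1.08 (adjusted p = 0.277) and -0.93 (adjusted p = 0.199). The 18 genes of the acetylcholine receptor and denervation list had 0 calls, and 0 were past an unadjusted p of 0.05 in either direction (median -0.00119). Chrna1, the receptor subunit that rises on denervated fibres, gave 0.56 (adjusted p = 0.636). Myog lost its call without any C or 24 h pool (adjusted p from 0.141 to 0.238).

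Contractile genes held almost no calls. Of 18 myosin chain genes 1 was called lower and 0 higher (median -0.124). Mylk2, the skeletal myosin light chain kinase, measured 27.1, 30.5 and 26.9 in the C pools and 12.1, 11.6 and 14.96 at 24 h (adjusted p = 0.0494). Myh2, the fast 2A heavy chain, measured 129, 149 and 93.9 in the C pools and 81.3, 34.2 and 102 at 24 h and was not called (-0.89, adjusted p = 0.605), and Myh8, the perinatal chain, gave 0.57 (adjusted p = 0.662). Among 26 sarcomere genes 0 were called, and 21 lay below 0, including 10 of 10 fast-type genes (median -0.259 for these), against 46.4% of all genes. The median of the whole list was -0.205 with the array median and -0.134 after quantile normalization. Single values were small, such as -0.72 for Tmod1, tropomodulin (adjusted p = 0.473). Of 22 calcium handling genes 0 were called (median -0.254), with the store-operated channel Orai1 at -0.79 (adjusted p = 0.459). Of 13 calcineurin and NFAT genes 0 were called (median 0.051), with Rcan2, a calcineurin regulator, at -0.95 (adjusted p = 0.102). Mylk2 lost its call without any C or 24 h pool or 10 D pool 3 (adjusted p from 0.116 to 0.245).

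Ion channels and membrane transport had the lowest median of the 44 lists, -0.778 over 15 genes, with 2 called higher and 3 lower. At an unadjusted p under 0.05, 2 were higher and 9 lower, against 6.08% and 3.52% of all genes. The list was grouped with earlier results of these data known, so its median, rank and counts are a description. Panx1, the pannexin channel, rose along with Kcnk1 and measured 0.445, 0.302 and 0.402 in the C pools and 1.37, 1.19 and 1.06 at 24 h (adjusted p = 0.0426). Kcna7, a voltage-gated potassium channel of muscle, fell from 11.8, 17.6 and 9.35 to 4.22, 2.05 and 3.57 (log2 change -1.99, SE 0.384, adjusted p = 0.0883). Kcnc1, another potassium channel, fell from 7.54, 8.90 and 5.21 to 2.76, 2.33 and 2.55 (log2 change -1.47, SE 0.290, adjusted p = 0.0969). No 24 h pool reached a C pool for either channel at these probesets, and other probesets of Kcnc1 gave -1.29, -0.01 and -0.35. Aqp1, the water channel of capillaries and red cells, measured 30.1, 27.8 and 24.3 in the C pools and 11.8, 12.9 and 13.7 at 24 h (log2 change -1.10, SE 0.188, adjusted p = 0.0609). Kcna7, Kcnc1 and Aqp1 lost their calls without any C or 24 h pool or 10 D pool 3 (adjusted p from 0.124 to 0.365). Panx1 lost its call without any C or 24 h pool (adjusted p from 0.12 to 0.191). Kcnk1 lost its call without 24 h pool 3 (adjusted p = 0.119).

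Lipid metabolism held calls at single genes. Of 32 genes of fatty acid uptake, lipolysis and oxidation, 2 were called higher and 0 lower (median -0.0138). Plin5, perilipin-5, which coats lipid droplets beside mitochondria, measured 7.47, 6.46 and 7.11 in the C pools and 24.8, 55.9 and 29.4 at 24 h (log2 change 2.30, SE 0.374, adjusted p = 0.0404), with 1.37 at another probeset. Acot2, a mitochondrial acyl-CoA thioesterase, measured 5.39, 3.59 and 4.54 in the C pools and 14.9, 24.3 and 15.7 at 24 h (log2 change 2.01, SE 0.294, adjusted p = 0.0237), but a further probeset gave 0.02. Neither gene overlapped between groups. Cpt2 gave 0.63 (adjusted p = 0.483). Fasn, fatty acid synthase, measured 8.47, 13.2 and 5.08 in the C pools and 2.06, 2.90 and 2.37 at 24 h (log2 change -1.78, SE 0.354, adjusted p = 0.0976), with C pool 3 the lowest of C. Fasn is also an adipocyte marker, and the summed level of 10 adipocyte markers was 259 to 360 in C and 189 to 285 at 24 h, so the groups overlapped in that sum. Of the 10 single markers, Fasn included, 9 lay below 0, with a median log2 change of -0.531, and 2 were lower and 0 higher at an unadjusted p under 0.05. The part of adipocyte content in the change of Fasn was not tested. Plin5 lost its call without any C pool or 24 h pool 2 or 3 (adjusted p from 0.12 to 0.2). Acot2 lost its call without C pool 2 or 3 or 24 h pool 3 (adjusted p from 0.107 to 0.154). Fasn lost its call without any C or 24 h pool or 10 D pool 3 (adjusted p from 0.1 to 0.344).

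Of 21 mevalonate and cholesterol genes 1 was called higher (Pmvk) and 1 lower (median 0.01). Fdft1, squalene synthase, measured 5.88, 7.05 and 8.79 in the C pools and 2.67, 3.25 and 2.63 at 24 h (log2 change -1.33, SE 0.265, adjusted p = 0.0969). Other probesets of Fdft1 gave -1.33 (adjusted p = 0.247), -0.13 and -0.04. Mvk, the enzyme before Pmvk, gave 2.18 (adjusted p = 0.29). Of 40 genes of glucose and glycogen metabolism 1 was called higher and 0 lower, with 27 below 0 (median -0.145). Fbp2, the muscle fructose bisphosphatase, measured 5.28, 6.86 and 7.75 in the C pools and 26.7, 24.5 and 29.6 at 24 h (adjusted p = 0.0103). Pfkfb3, a regulator of glycolysis, gave -1.28 (adjusted p = 0.151), and Phkg1, the catalytic subunit of phosphorylase kinase, -0.96 (adjusted p = 0.249). Of 48 respiratory chain genes 0 were called (median 0.0735). Cox6a2, a muscle subunit of cytochrome oxidase, gave -0.75 (adjusted p = 0.402). Fdft1 lost its call without any C or 24 h pool or 10 D pool 3 (adjusted p from 0.139 to 0.33). Pmvk lost its call without C pool 1 or 3 or 24 h pool 3 (adjusted p from 0.107 to 0.13). Fbp2 kept its call without any 1 of the 9 pools.

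Vascular and matrix genes held few calls. Of 17 angiogenesis genes, 2 were called higher and 0 lower (median 0.151). Edn1, endothelin-1, a vasoconstrictor made by endothelium, measured 0.747, 0.876 and 0.925 in the C pools and 2.35, 2.68 and 2.15 at 24 h, an increase of 2.82-fold (adjusted p = 0.0418). Tinagl1, a matricellular protein of vessels, measured 3.13, 3.27 and 3.29 in the C pools and 7.95, 7.74 and 7.79 at 24 h (log2 change 1.28, SE 0.179, adjusted p = 0.0271), with the pools of each group close together. Nrp1 gave 0.69 (adjusted p = 0.501). Col4a1, a basement membrane collagen, was the 1 call of 34 collagen and matrix genes, 23 of which lay below 0 (median -0.125). It measured 23.8, 20.6 and 16.3 in the C pools and 44.6, 39.4 and 39.8 at 24 h (log2 change 1.04, SE 0.208, adjusted p = 0.0969), with 0.56 at another probeset. Timp3 and Timp2, inhibitors of matrix proteases, gave -1.40 (adjusted p = 0.223) and -0.91 (adjusted p = 0.436). Of 7 renin-angiotensin genes Agt, angiotensinogen, was called higher (median 0.01), at 0.451, 0.377 and 0.397 in the C pools and 4.91, 2.03 and 3.13 at 24 h (adjusted p = 0.00722). Edn1 lost its call without any C or 24 h pool (adjusted p from 0.129 to 0.226). Col4a1 lost its call without any C or 24 h pool or 10 D pool 3 (adjusted p from 0.162 to 0.33). Tinagl1 lost its call without any C pool or 24 h pool 3 (adjusted p from 0.115 to 0.176). Agt kept its call without any 1 of the 9 pools.

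**Figure D4:**
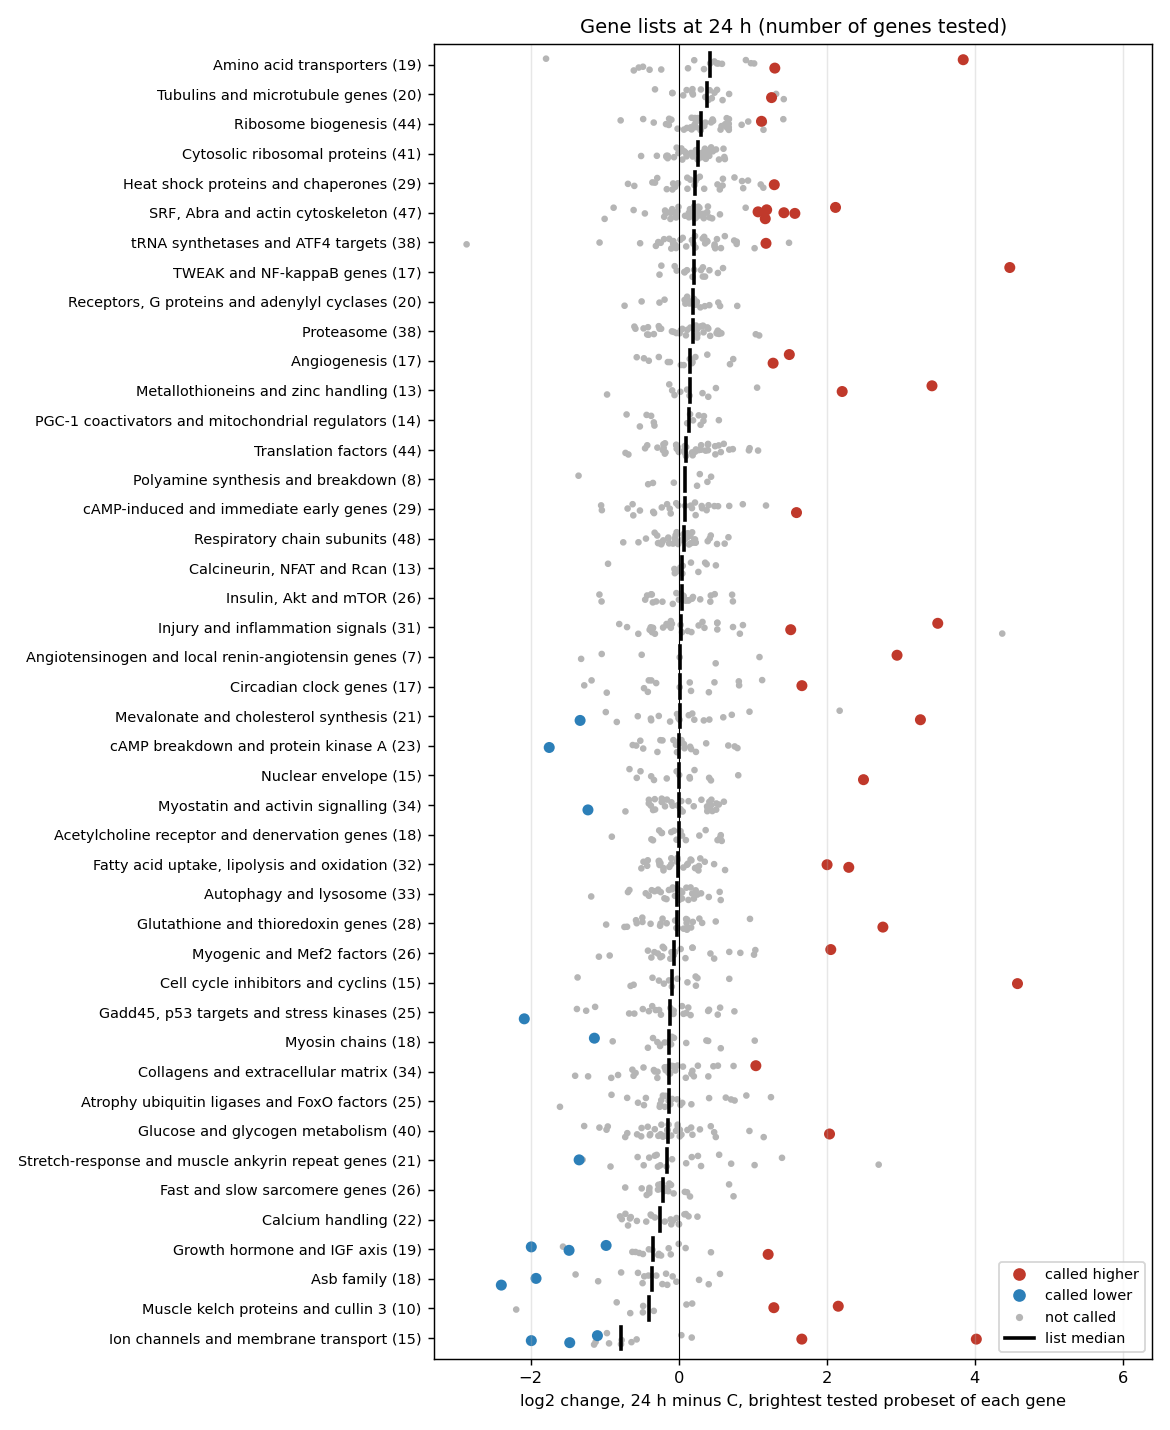
Log2 change at 24 h relative to C (x axis) of every tested member of the 44 gene lists (rows), 1 point per gene by its brightest probeset, with called members in colour and the list median as a bar. The ion channel list has the lowest median (-0.778), and the called members lie far out on either side. Lists were grouped with earlier results of these data known, so their order is a description.

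Where a gene had several probesets, they did not always move together. Of 150 called genes, 97 had over 1 tested probeset. All tested probesets had the same sign in 70 of these, over 1 was called in 8, and every one was called in 4. Cdkn1a, Tnfrsf12a and Asb10 were among those with each tested probeset called. Of the 169 called probesets, 28 have the suffix _s_at or _x_at, by which the maker marks sets that can also read related transcripts, among them those of Mt1, S100a8, Igfbp5, Ghr, Htra1, Plin5, Flnc, Tsr1 and Fdft1. Probesets of 1 gene can read different transcript ends, and the level of a probeset cannot be set against that of another.

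The 10 D pools show where these genes stood when clenbuterol had been given on all 10 days. Both contrasts with C share the C pools, so the test given here is 10 D against 24 h. That test in turn shares the 24 h pools by which the called probesets were chosen. Of the 33652 probesets, 0.0535% passed it. Of the 121 called higher at 24 h, 11 differed between 10 D and 24 h, and of the 48 called lower, 5, all of them back toward C. The mean 10 D level lay between C and 24 h for 111 of the higher and 39 of the lower probesets. For 2 and 0 it lay beyond 24 h, and for 8 and 9 past C. The median log2 difference from C of the higher probesets was 1.5 at 24 h and 0.601 at 10 D, and that of the lower ones -1.51 and -0.352. These probesets were chosen by their change at 24 h, and that choice favours differences back toward C. The direct calls among them and where they lay at 10 D are therefore a description.

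Cdkn1a measured 3.29, 4.76 and 3.82 in the 10 D pools, all above C and all below 24 h. Mt1 measured 16, 19.8 and 19.6, Asb15 22.3, 17.1 and 23.6 and Gadd45g 11.2, 5.59 and 9.75 in these pools. Mt1 was still above each of its C pools at 10 D, Asb15 was below each of its C pools, and Gadd45g was above them in pools 1 and 3 and below them in pool 2. Emd measured 4.01, 3.45 and 2.90, Tubb6 1.09, 0.357 and 0.884 and Pmvk 1.48, 1.26 and 1.54. By contrast Slc7a5 measured 0.879, 1.14 and 1.67, Plin5 4.78, 6.02 and 12.9 and Igfbp5 31.9, 38.9 and 40.4 at 10 D, and their differences from 24 h did not pass the test (adjusted p = 0.534, 0.109 and 0.125), which does not show that they stayed at their 24 h level. The direct differences that did pass are given with the results for a closer look.

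Markers of muscle fibres and of other cell types found in muscle were summed per pool, and no tested marker was at 0 in any pool. Sums of different cell types rest on different probesets and are read only between pools. All 8 skeletal fibre markers passed the filter, and their sum was 1580 to 2530 in C and 1360 to 1990 at 24 h. The sums of C and 24 h overlapped for macrophage (25.6 to 30.8 and 26.5 to 37.6), endothelial (33 to 35.7 and 34.5 to 43.1), fibroblast (134 to 189 and 107 to 158), satellite cell (6.48 to 7.14 and 5.98 to 7.14), Schwann cell (25.8 to 35.1 and 24.9 to 37.3), erythroid (1.52 to 2.44 and 1.6 to 2.52) and keratinocyte markers (5.94 to 25.4 and 4.02 to 6.89). They did not overlap for neutrophil (3.26 to 4.22 and 5.72 to 7.33), lymphocyte (9.7 to 10.9 and 6.17 to 8.3) and smooth muscle markers (205 to 234 and 193 to 203). For single probesets, separation upward occurred in 9.67% and downward in 7.23%. Sums follow the brightest markers, and counts of single markers can differ from them. Of the 8 smooth muscle markers 5 lay below 0 and 3 above (median -0.0741). All 24 h pools lay below all C pools in 0 of these 8 markers and above them in 1. Below 0 lay 8 of 8 fibre markers (median -0.251, and -0.088 after quantile normalization), 7 of 7 keratinocyte markers (median -1.57, 2 lower at an unadjusted p under 0.05), 8 of 9 fibroblast markers (median -0.402, 2 lower and 1 higher), 6 of 7 satellite cell markers (median -0.0934) and 5 of 6 lymphocyte markers (median -0.975, 3 lower). The part of these cell types in other results was not tested.

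**Figure D5:**
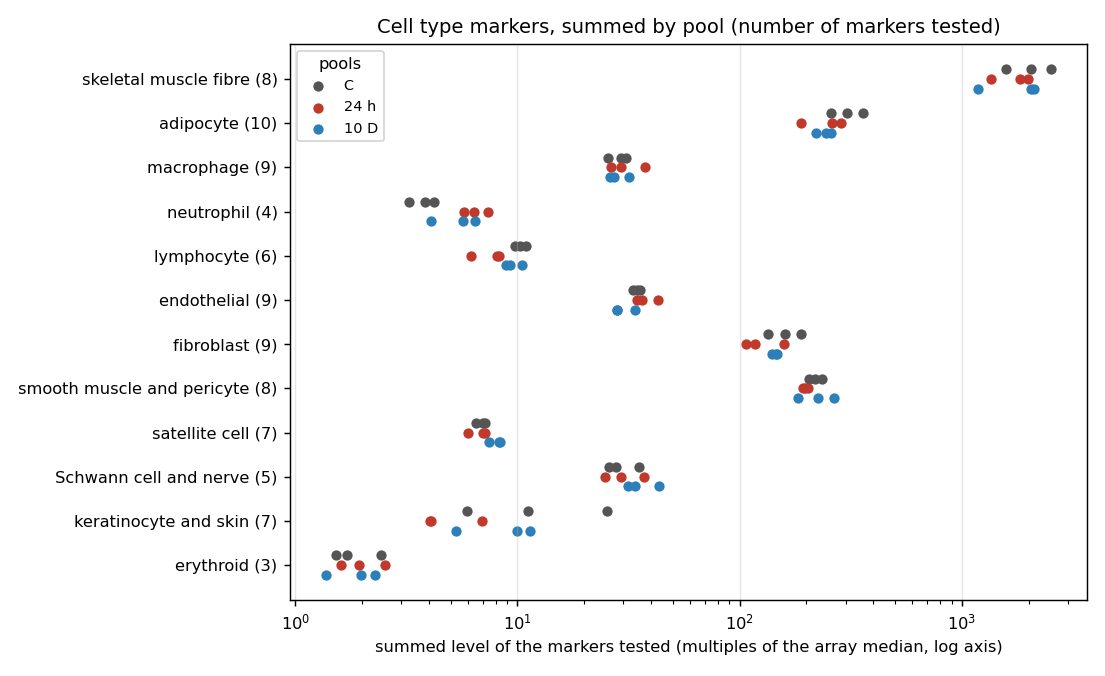
Summed level of the markers of 12 cell types (rows, number of markers tested in brackets, x axis in multiples of the array median on a log scale) in each pool of C, 24 h and 10 D. The C and 24 h points overlap for most cell types, while the sum of neutrophil markers is higher at 24 h and those of lymphocyte and smooth muscle markers lower. Among single markers, all 24 h pools lay above all C pools in 1 of 4 neutrophil markers (S100a8). They lay below all C pools in 0 of 8 smooth muscle markers.

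Within the neutrophil list, single genes differed. Of the 4 markers tested, 1 (S100a8) was called, and it alone had all 24 h pools above all C pools. The higher sum at 24 h is therefore not a shared rise of these markers. S100a8, a calprotectin subunit of neutrophils and monocytes, rose from 0.204, 0.0354 and 0.196 to 2.78, 2.07 and 2.05 (log2 change 4.34, SE 0.678, adjusted p = 0.0415). Its partner S100a9 measured 0.844, 0.445 and 0.0397 in the C pools and 0.538, 0.504 and 0.689 at 24 h and was not called (1.22, adjusted p = 0.849). The granule genes Mpo and Ngp gave 0.33 (adjusted p = 0.864) and -0.03 (adjusted p = 0.987). Of the lymphocyte markers, the B cell gene Ms4a1 gave -1.18 (adjusted p = 0.102) and the T cell gene Cd3g -1.12 (adjusted p = 0.691). Cd247, called lower above, is likewise expressed in T and natural killer cells. The part of white cell number in the changes of S100a8, Lgals3, Ifi30 and Cd247 was not tested. Macrophage markers gave 0.85 for Cd68 (adjusted p = 0.357) and 0.27 for Adgre1 (adjusted p = 0.836), and the satellite cell marker Pax7 -0.10 (adjusted p = 0.973). S100a8 lost its call without C pool 1 or 3 or any 24 h pool (adjusted p from 0.1 to 0.162). Cd247 lost its call without any C or 24 h pool or 10 D pool 1 or 3 (adjusted p from 0.111 to 0.408).

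Finally, the promoters of the called genes were searched on both strands for 4 kinds of regulatory letters, in 250 bases before to 50 after each RefSeq start. Promoters were matched for 87 of 109 genes called higher, 33 of 41 called lower and 12098 of 15121 tested. The full cAMP response element TGACGTCA was held by 2 genes called higher (2.3%), 0 called lower and 3.12% of all. Its shorter core TGACG, contained in the full element, was held by 33 called higher (37.9%), 7 called lower (21.2%) and 32.1% of all. The metal response core was held by 36 (41.4%), 12 (36.4%) and 38.2%, and the amino acid response core TGATGNAA by 3 (3.45%), 2 (6.06%) and 3.07%. CArG elements were held by 4 (4.6%), 0 and 1.55%. These shares are descriptions of letters, were not tested, and say nothing of binding. The Ppargc1a promoter is shown because the gene is a known cAMP target. Within the bases searched it held the shorter core and not the full element. In chr5:51567757-51567786 (minus strand, GRCm38.p6), 49 bases before the start, it reads with the core in capitals, on the opposite strand:
Ppargc1a: ggtgccctcccaCGTCActgagctccagtg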

How the data were processed

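RNA pools of the C, 24 h and 10 D groups were each measured on both chips. The authors deposited MAS 5.0 intensities, linear signals given to 0.1 and not scaled between arrays, so a dimmer array has coarser low values and more of them near background. The MAS 5.0 settings and detection calls are not given in the sources used here. Signals of 0 (18 values) were set to 0.05, each signal was divided by its array median and log2 was taken. The test took in 16769 probesets of MOE430A and 16883 of MOE430B, those whose average log2 signal was at least the 25th percentile for that chip (signals of 14.1 and 6.97). Symbols were those of the platform annotation after an update through RefSeq. Of 44924 probesets 34842 had 1 symbol, 928 had several and were not named, and 9154 had none listed. Of the 11 called probesets among the last, 2 were named (Amd1 and Arpc3) through the probe list of the study, from which symbols alone were taken.

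Each chip was fitted in R 4.3.3 with limma 3.58.1 (lmFit, then eBayes with an intensity trend) to the 3 groups over 9 pools, with 6 residual degrees of freedom. Two-sided p-values received 1 Benjamini-Hochberg adjustment over the pair of chips, and probesets under 0.1 were called. The fit was tested on simulated data. Genes were named by a rule: the 20 highest and 20 lowest called changes with pools that do not overlap, every called member of a list, otherwise up to 3 members with the smallest p, the genes measured by PCR in the study, Actb and cell type markers. The other holders of a CArG element and 2410006H16Rik were named after their values were seen. Genes, lists and the comparison itself were chosen with earlier results of these data known. Alternatives changed the filter, scaling, offset, pools, block, variance model and threshold. The rows left out on 1 array were found after the data were examined. A check of RNA quality by control probesets was not run, and those probesets were not analysed here.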

Additional observations from a re-analysis of the deposited data

Results flagged for a closer look

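In all, 16 probesets called at 24 h also differed between 10 D and 24 h in the direct test of limma, all back toward C. These probesets had been chosen by values of the same 24 h pools, which favours that direction. Differences are log2 of 10 D minus 24 h, with 3 pools in each group. The largest were in Tnfrsf12a, at -4.20 (probeset 1418571_at, adjusted p = 0.0225) and -4.33 (1418572_x_at, adjusted p = 0.0406), and in Tubb6 at -3.71 (adjusted p = 0.0406). Cdkn1a gave -3.36 (adjusted p = 0.00108) and was the only 1 of the 16 that passed without each of the 9 pools in turn. Pmvk gave -3.33 and Mt1 gave -2.06, with adjusted p of 0.0406 and 0.0354. Abra gave -2.20 and Emd -2.14, both with an adjusted p of 0.0225. Cxcl12 gave -1.67 (adjusted p = 0.0354), Klhl30 -1.68 (adjusted p = 0.0634) and 2410006H16Rik -1.88 (adjusted p = 0.0772). The probesets that were low at 24 h were higher at 10 D. They were Gadd45g with 2.27 (adjusted p = 0.0354), Asb15 with 2.04 (adjusted p = 0.0225), Fn3k with 2.39 (adjusted p = 0.0857), Mylk2 with 1.22 (adjusted p = 0.0974) and probeset 1433296_at, which has no symbol, with 2.05 (adjusted p = 0.0354).

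The direct calls of Asb15, Abra and Tnfrsf12a (1418571_at) were lost without 24 h pool 1 or 3 (adjusted p up to 0.17), and that of Emd also without 10 D pool 3 (up to 0.17). Tubb6, Gadd45g, Cxcl12 and Tnfrsf12a (1418572_x_at) lost theirs without C pool 1 or 3, 24 h pool 1 or 3 or 10 D pool 3 (up to 0.225). Mt1 and Pmvk lost theirs without these pools or 10 D pool 1 (up to 0.225), and probeset 1433296_at without C pool 1, 24 h pool 1 or 3 or 10 D pool 1 (up to 0.17). Klhl30 and 2410006H16Rik were lost without any C or 24 h pool or 10 D pool 1 (up to 0.271), and Mylk2 and Fn3k without any of these or 10 D pool 3 (up to 0.423).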

How the results depend on the processing

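Precision is limited by the 3 pools per group. Of the values of named genes under the alternatives, 4514 stayed on their side of the threshold. A further 556 kept their direction and lost the call, and 107 kept their direction and gained one. Direction changed in 0 of the values called in the main fit or under the alternative. Changes of direction in values called in neither were not counted. Leaving out 1 pool gave 24 to 443 calls, 17 to 267 higher, 2 to 176 lower, 13 to 75 list members and 1 to 78 direct calls between 10 D and 24 h among the 24 h calls, against 169, 121, 48, 50 and 16. Calls lower moved to 105 with quantile normalization and 81 with trimmed mean scaling, and direct calls to 35 and 29. Of the 44 list medians, 9 changed sign under these scalings, none above 0.0507 in size, and the largest shift of a median was 0.113. Fitting only the 6 pools of 24 h and C gave 365 calls, 217 higher and 148 lower. Without the intensity trend there were 52 calls, 40 higher and 12 lower, with 23 list members and 4 direct calls. The ordinary contrast gave 100 calls, 69 higher and 31 lower, with 32 list members. An adjusted p under 0.05 left 67 calls, 54 higher and 13 lower, with 30 list members, by construction. The cause of the other moves was not tested. Other filters, the offset, each chip adjusted alone and the misplaced values gave 127 to 232 calls.

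With the replicate number as a block there were 216 calls, 152 higher and 64 lower, 56 list members and 22 direct calls. Deviations of same-numbered C and 24 h pools correlated at -0.0729 to 0.0505, so the numbers showed no pairing of C with 24 h pools. Whether they pair the 10 D pools with those of 24 h or C was not tested.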
